A study of Mus musculus with 18 samples.

Results

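The comparison set day 3 myotubes of the C2C12 clone labelled a Dlk1-Dio3 overexpressor against day 3 myotubes of the vector control, across all genes. The libraries were taken by their labels and make up 6 of the 18 polyA RNA-seq libraries of the series, with 3 (replicates A, B and C) on each side. C2C12 is an established mouse myoblast line whose cells leave the cell cycle and fuse into multinucleated myotubes when serum is withdrawn, here by a change to low horse serum. Both groups descend from myoblasts that were transfected and sorted for EGFP. The control cells had received the pX458 plasmid, which encodes Cas9 and EGFP, without a guide RNA, and were kept as a sorted population. The overexpressor was 1 clone, grown up from a single diluted cell after transfection with a pair of guides against the proximal regulatory region of Meg3, and it carries a deletion there whose extent is not given in the sources used here. A knockout clone, made in the same way, and the myoblasts of the same lines served here only as reference points. With 1 clone against 1 population, genotype and clonal origin cannot be told apart. The labels say only that RNA was submitted in triplicate. The p-values therefore measure the spread between samples of the same line and stage, pooled over the 6 groups of the series, which may be technical. The study asked how the dosage of the Dlk1-Dio3 noncoding RNAs bears on mitochondrial respiration, chromatin and muscle differentiation.

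Dlk1-Dio3 is an imprinted region in which the maternal chromosome expresses long noncoding RNAs, among them Meg3, Rian and Mirg, that lie in tandem and host small nucleolar RNAs and microRNAs, while the paternal chromosome expresses the protein genes Dlk1, Rtl1 and Dio3. Muscle stem cells are among the cells in which the region is active. Myotube formation is driven by Myod1, Myf5, Myog and Myf6 with MEF2 factors, and is followed by the stepwise assembly of the sarcomere, the excitation-contraction machinery and the postsynaptic membrane. PolyA RNA-seq counts the long transcripts and does not measure the mature microRNAs or small nucleolar RNAs they host.

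The promoter of Meg3 is shown because the guides of the edited clone were directed to it; their positions are not given in the sources used here. Meg3 has 2 RefSeq windows, and the one shown was picked as the first that holds the motif marked below. This window (chr12:109540746-109541045, GRCm38.p6, plus strand) runs from 250 bases before to 50 bases after the start. Capitals mark the match to TGACGTCA, the full cAMP response element, which reads the same on both strands and begins -57 relative to the start. These letters were found in 1.79% of 32851 such windows, and the match is a description of the sequence only.
Meg3: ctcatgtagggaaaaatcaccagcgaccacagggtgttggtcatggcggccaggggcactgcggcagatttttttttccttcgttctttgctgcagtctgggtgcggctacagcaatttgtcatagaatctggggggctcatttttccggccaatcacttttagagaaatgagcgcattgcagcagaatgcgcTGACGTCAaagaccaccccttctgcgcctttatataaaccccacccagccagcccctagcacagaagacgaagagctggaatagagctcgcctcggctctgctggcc

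The control myotube libraries held 48217062 to 60491782 counts each, the overexpressor ones 67035356 to 79140702, and 1 library stood apart from its group. Overexpressor replicate C differed from replicates A and B by a chi-square of 118 and 112 per degree of freedom, where A and B differed from each other by 22.8 and the control pairs by 11.4 to 25.9. It also lay away from them on the second principal component, which held 6.4% of the variance, while the first, with 84.5%, separated the lines. The biological coefficient of variation was 19.4% in overexpressor and 9.2% in control myotubes. Counts for the gene groups are therefore also given without that library. Leaving it out also changes which genes pass the expression filter. A group can then hold another number of tested genes, such as 24 in place of 23 FGF genes and 27 in place of 25 Hox genes. Myotube identity was checked on 6 markers (Myh3, Ckm, Acta1, Tnnt3, Mymk and Myog), all present in every library, whose summed level was 13610 to 14060 CPM (counts relative to the TMM-scaled library size) in control and 20780 to 22900 CPM in overexpressor myotubes. Of the 6, Mymk and Myog did not pass the test and the other 4 were higher in the overexpressor. Panels of 4 endothelial, 4 immune and 4 neural markers summed to at most 2.18 CPM per panel in any library, and Ptprc, Sox10 and Pecam1 had at most 5 counts in any of the 6 libraries. The full list of 26 such markers, of which 14 were tested, summed to 24.6 to 27.4 CPM in control and 30.3 to 36.1 CPM in overexpressor myotubes, with 3 higher and 7 lower. Its most abundant gene in the overexpressor, the neuronal tubulin gene Tubb3, had 6.40, 7.14 and 6.96 CPM in control and 23.8, 20.1 and 18.9 CPM in overexpressor myotubes, and the part of these markers in the other results was not tested. Of the 120 genes with a position that are named here, 10 share at least 10% of their exon bases with another gene. They are Tagln, Hoxb3, Cdkn1c, Ccn2, Mest, Timp3, Fbn1, Sfrp2, Ckm and Cox6a2. The strand setting of the counting is not given in the sources used here, so reads of the partners cannot be told apart.

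Of 17912 genes tested with edgeR's quasi-likelihood test, 10236 (57.1%) passed an adjusted p of 0.05 between overexpressor and control myotubes. They split into 4693 higher (26.2% of those tested) and 5543 lower (30.9%) in the overexpressor, and 4246 (23.7%) differed at least 2-fold. These shares are the background for every gene group below: a group with few calls or many is read against them. The median log2 difference over all genes was -0.04, with quartiles of -0.49 and 0.46. Large falls outnumbered large rises, with 615 genes at least 8-fold lower against 410 higher and 247 at least 32-fold lower against 101 higher. The direction of small differences depended on scaling, since DESeq2's size factors moved the median to 0.07 and gave 5617 higher and 4572 lower genes, and library totals moved it to 0.11 and gave 5943 and 4337. Without overexpressor replicate C, 5263 genes were higher and 4947 lower.

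**Figure D1:**
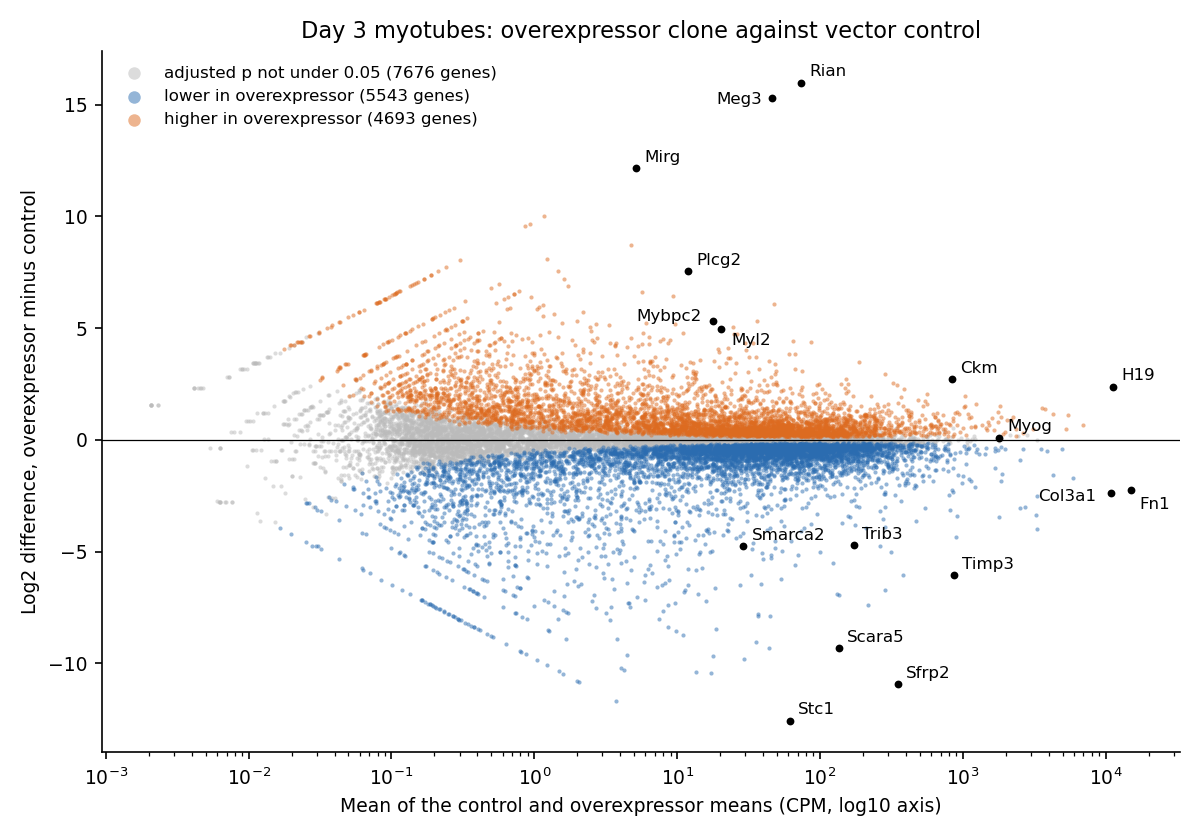
Mean level (CPM, log10 axis) against the log2 difference between overexpressor and control myotubes for the 17912 genes tested. Grey points did not pass an adjusted p of 0.05, coloured points did, and labelled genes are described in the text; the noncoding transcripts of the targeted region stand at the top, and Stc1 at the bottom.

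The targeted transcripts separated the groups completely. Meg3 (chromosome 12, 109541001 to 109571726, plus strand) had 0 counts in all control myotube libraries and 77.5, 97.1 and 103 CPM in overexpressor replicates A, B and C. This is at least 1550-fold above what 3 counts in each control library would give (adjusted p = 1.25e-08). Rian (chromosome 12, 109603940 to 109661716, plus strand), which hosts small nucleolar RNAs, had 0 counts in the controls and 122, 139 and 184 CPM in the overexpressor, at least 2480-fold higher (adjusted p = 1.89e-12). Mirg (chromosome 12, 109729764 to 109749460, plus strand), a microRNA host, had 0 counts in the controls and 10.6, 10.5 and 9.96 CPM in the overexpressor, at least 173-fold higher (adjusted p = 2.87e-10). Every overexpressor library held all 3 transcripts, and no control library held a single count of any. In knockout myotubes Meg3 was at 0 ± 0, Rian at 0.0521 ± 0.0270 and Mirg at 0 ± 0 CPM (SD, n = 3).

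The protein genes of the region had few or no counts. Rtl1, a retrotransposon-derived gene, had 4, 3 and 2 counts in the overexpressor libraries and 0 in the controls, too few for a fold (adjusted p = 0.0113). Dlk1, a transmembrane regulator of differentiation, had at most 1 count in a control and 0 in an overexpressor library, and Dio3, a thyroid hormone deiodinase, at most 0 and 1. Of 18 tested genes that flank the region on chromosome 12, 6 were higher and 4 lower, with a median log2 difference of -0.11, which turned to 0.04 under library totals (7 higher and 5 lower without overexpressor replicate C). The tryptophanyl-tRNA synthetase gene Wars was the lowest of them, with 348, 350.1 and 317 CPM in control and 109, 113 and 96.5 CPM in overexpressor replicates, 3.19-fold lower (log2 difference -1.67, SE 0.07, adjusted p = 1.72e-12). Mok, a kinase gene, was the highest, from 2.67, 2.77 and 2.24 CPM in control to 6.30, 5.83 and 6.13 CPM in the overexpressor, 2.38-fold higher (log2 difference 1.25, SE 0.13, adjusted p = 1.16e-07). Both neighbours differed by far less than the noncoding transcripts, and the rule that named them required no overlap between the groups.

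Regulators of the myogenic programme went in both directions, while genes of the contractile machinery were mostly higher in the overexpressor myotubes. Of the 8 tested myogenic regulatory factors and MEF2 genes, 4 were higher and 3 lower, with a median of 0.20 (2 higher and 3 lower without overexpressor replicate C). Myog, which drives terminal differentiation, had 1764, 1768 and 1663 CPM in control and 2007, 1899 and 1660 CPM in overexpressor myotubes, and the groups overlapped (log2 difference 0.10, SE 0.14, adjusted p = 0.559). Myod1, the determination factor, was 1.23-fold higher (adjusted p = 0.013), a call lost without control replicate C (adjusted p = 0.0732) or overexpressor replicate A (adjusted p = 0.0845). Myf6, the factor of late myofibres, fell from 2.56, 2.20 and 2.85 CPM to 0.609, 0.375 and 0.695 CPM, 4.56-fold lower (log2 difference -2.19, SE 0.18, adjusted p = 8.36e-09). Mef2d was 1.68-fold higher and Mef2a 1.81-fold lower (adjusted p = 1.75e-08 and 0.0017). Myf5 and Mef2c were called higher with all libraries, but Myf5 lost its call in 5 of 12 alternatives and Mef2c in 7. Among these were the fits without control replicate A (adjusted p = 0.184 and 0.0753) and without overexpressor replicate C (adjusted p = 0.0871 and 0.129), in which both had their highest level, 11.2 and 183 CPM.

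Fusion genes were mixed. Of 33 tested fusion and adhesion genes, 8 were higher and 15 lower, with a median of -0.20 (10 higher and 16 lower without overexpressor replicate C). The fusogen Mymx had 168, 168 and 136 CPM in control and 226, 209 and 196 CPM in overexpressor myotubes, 1.34-fold higher (log2 difference 0.42, SE 0.12, adjusted p = 0.00489), with no overlap. Its partner Mymk overlapped between the groups, with a log2 difference of 0.19 (SE 0.16, adjusted p = 0.342). The cadherin genes Cdh2 and Cdh15 were 1.62-fold and 1.40-fold higher (adjusted p = 1.8e-06 and 6.31e-05). The largest fall was of Elmo1, an activator of Rac signalling in fusion, from 25.3, 20.6 and 20.1 CPM to 0.0742, 0.0375 and 0.0417 CPM, 419-fold lower (log2 difference -8.71, SE 0.33, adjusted p = 1.99e-12). In these overexpressor libraries 3 counts correspond to 0.0446, 0.0375 and 0.0417 CPM, so the size of this fold is uncertain.

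Myosin light chains rose as a group. All 8 tested light chain and light chain kinase genes were higher in the overexpressor, with a median log2 difference of 1.08 against -0.04 over all genes (8 higher and 0 lower without overexpressor replicate C). Myl2, the regulatory light chain of slow and cardiac muscle, rose from 0.834, 1.51 and 1.44 CPM in control to 40.4, 38.6 and 39.6 CPM in overexpressor replicates, 31.4-fold higher (log2 difference 4.97, SE 0.25, adjusted p = 1.34e-10). Mylpf, the fast regulatory chain, stood at 3332, 3854 and 3228 CPM in control and 8030, 7161 and 7207 CPM in the overexpressor, 2.15-fold higher (log2 difference 1.10, SE 0.20, adjusted p = 0.000227). Of the 9 tested sarcomeric myosin heavy chains, 5 were higher and 1 lower (6 higher and 1 lower without overexpressor replicate C). Myh4, an adult fast chain, had the highest fold of them and went from 87.5, 111 and 122 CPM to 576, 521 and 673 CPM, 5.53-fold higher (log2 difference 2.47, SE 0.21, adjusted p = 1.22e-07). Myh1, also adult and fast, had 400, 399 and 451 CPM in control and 1560, 1585 and 1813 CPM in overexpressor myotubes, 3.97-fold higher (log2 difference 1.99, SE 0.22, adjusted p = 1.44e-06). The embryonic chain Myh3, the most abundant of the family by CPM, was 1.38-fold higher (adjusted p = 0.047), and the call was lost in 6 of 12 alternatives, among them the fits without control replicate A or B or overexpressor replicate A or B (adjusted p from 0.0558 to 0.146 over the 6). Neonatal Myh8 overlapped between the groups (log2 difference -0.30, adjusted p = 0.162), and the extraocular chain Myh13 was 11.5-fold lower at low levels (adjusted p = 1.32e-08). Counts of near-identical heavy chain genes can be split between them by the authors' counting, so the isoform values are uncertain.

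Thin filament, Z-disc and calcium-handling genes followed the light chains. Among troponins and tropomyosins 10 of 12 were higher and 0 lower, with a median of 1.08 (11 higher and 0 lower without overexpressor replicate C). Fast Tnnt3 rose from 914, 884 and 1001 CPM to 2756, 2664 and 2726 CPM, 2.91-fold higher (log2 difference 1.54, SE 0.15, adjusted p = 2.13e-07), and slow Tnnt1 from 586, 603 and 669.6 CPM to 1976, 1808 and 1803 CPM, 3.01-fold higher (log2 difference 1.59, SE 0.11, adjusted p = 4.07e-10). Both a fast and a slow isoform rose, while Tnnc1 and Tpm4 did not pass the test (adjusted p = 0.388 and 0.0633). Of 51 Z-disc, M-band and thin filament genes 40 were higher and 4 lower, with a median of 1.04 (42 higher and 4 lower without overexpressor replicate C). The fast myosin-binding protein gene Mybpc2 rose from 0.966, 0.778 and 0.848 CPM in control to 39.8, 26.9 and 38.3 CPM in overexpressor myotubes, 40.3-fold higher (log2 difference 5.33, SE 0.20, adjusted p = 1.9e-13). Acta1, skeletal alpha-actin and one of the 5 largest rises by CPM, went from 5650, 5588 and 4773 CPM to 8992, 9372 and 7403 CPM, 1.61-fold higher (log2 difference 0.69, SE 0.23, adjusted p = 0.0176), but the call was lost without control replicate C or overexpressor replicate B (adjusted p = 0.0657 and 0.0551). Xirp2, an actin-binding protein of the Z-disc and intercalated disc, fell from 5.55, 3.46 and 5.70 CPM to 0.238, 0.60 and 0.458 CPM, 11.2-fold lower (log2 difference -3.48, SE 0.36, adjusted p = 1.47e-07).

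Of 33 excitation-contraction and calcium genes, 26 were higher and 4 lower, with a median of 0.99 (27 higher and 4 lower without overexpressor replicate C). Pvalb, the calcium buffer of fast fibres, rose from 1.93, 2.86 and 2.74 CPM to 47.3, 36.8 and 44.3 CPM, 17.1-fold higher (log2 difference 4.09, SE 0.15, adjusted p = 1.35e-13). Clcn1, the muscle chloride channel, rose from 0.208, 0.160 and 0.289 CPM to 5.41, 4.42 and 5.96 CPM, 23.4-fold higher (log2 difference 4.55, SE 0.26, adjusted p = 4.68e-11). Mrln, which encodes the SERCA inhibitor myoregulin, was 9.96-fold higher (adjusted p = 2.31e-12). The falls included Cacng6, a calcium channel subunit, which was 7.69-fold lower (adjusted p = 1.53e-08). Postsynaptic genes moved the same way, with 14 of 18 higher and 1 lower and a median of 0.85 (15 higher and 1 lower without overexpressor replicate C). The adult acetylcholine receptor subunit Chrne rose from 0.890, 1.21 and 1.12 CPM to 13.6, 7.62 and 14.2 CPM, 11-fold higher (log2 difference 3.46, SE 0.25, adjusted p = 5.33e-09), and the fetal subunit Chrng was 2.00-fold higher (adjusted p = 1.07e-05). Dystrophin-complex genes were split, with 8 higher and 4 lower of 20 (9 higher and 4 lower without overexpressor replicate C). In bulk RNA, a larger share of fused cells and more RNA of these genes per myotube cannot be told apart.

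**Figure D2:**
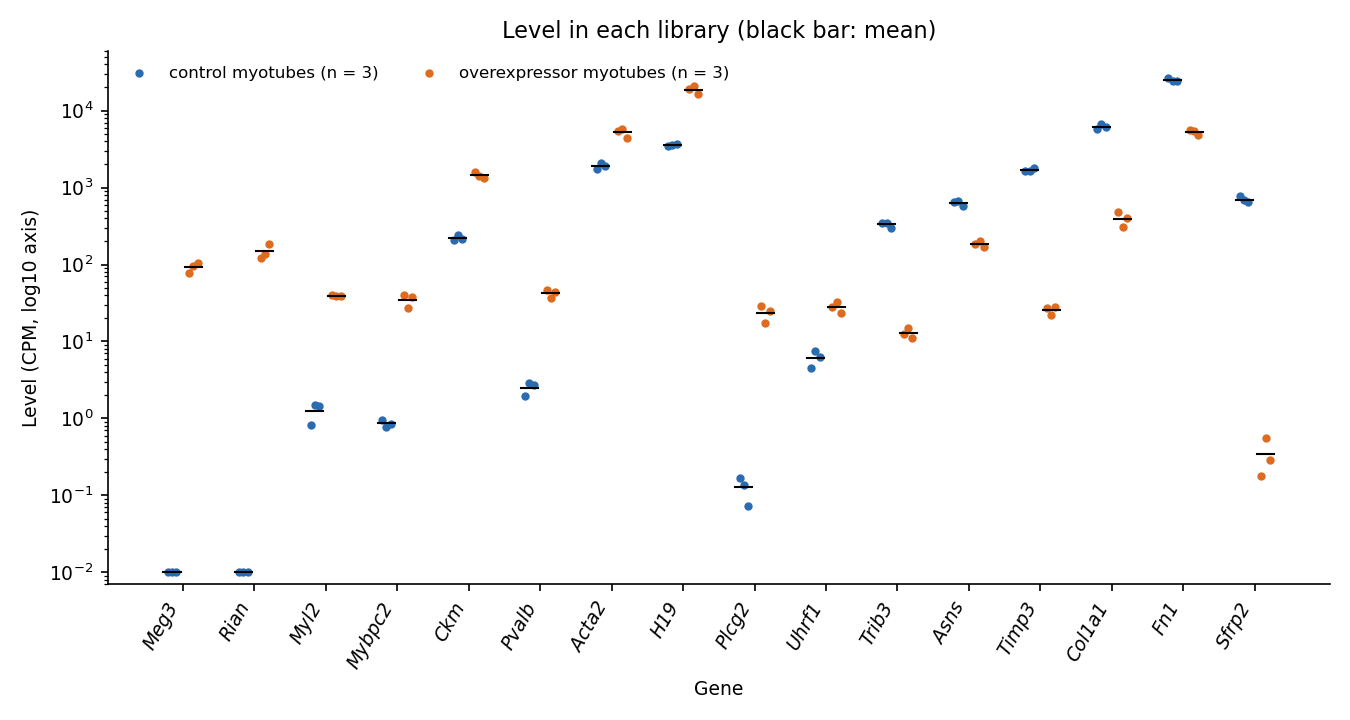
Level in each library (CPM, log10 axis) of 16 genes that lead the groups described, with control myotubes in blue and overexpressor myotubes in orange; each point is 1 library, and values under 0.01 CPM are drawn at 0.01. The groups do not overlap for any gene shown, which was a condition for showing a gene.

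The phosphocreatine system, which buffers ATP in muscle, was higher in most of its members. Of 6 tested creatine genes, 5 were higher and 1 lower, with a median of 2.10 (5 higher and 1 lower without overexpressor replicate C). Ckm, the muscle creatine kinase, rose from 209, 241 and 212 CPM to 1612, 1428 and 1341 CPM, 6.62-fold higher (log2 difference 2.73, SE 0.21, adjusted p = 2.26e-08). Gamt, which completes creatine synthesis, rose from 20.6, 23.2 and 18 CPM to 118, 97.3 and 94.4 CPM, 5.0-fold higher (log2 difference 2.32, SE 0.12, adjusted p = 1.08e-11). The creatine transporter gene Slc6a8 fell from 215, 222 and 200.5 CPM to 109.9, 120.1 and 101 CPM, 1.93-fold lower (log2 difference -0.95, SE 0.07, adjusted p = 1.67e-09).

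Of 44 glycolysis and glycogen genes 24 were higher and 13 lower, with a median of 0.35 (26 higher and 10 lower without overexpressor replicate C). The muscle phosphoglycerate mutase Pgam2 was 4.78-fold higher and Ldhb, the lactate dehydrogenase of oxidative tissue, 4.85-fold higher (adjusted p = 1.36e-07 and 4.09e-10). Slc16a3, the lactate exporter of glycolytic cells, fell from 32.9, 28.1 and 21.5 CPM to 0.891, 0.688 and 0.847 CPM, 34.0-fold lower (log2 difference -5.09, SE 0.20, adjusted p = 2.29e-13). Nuclear-encoded subunits of the respiratory chain rose by small amounts. In complex I, 20 of 36 were higher and 3 lower, with a median of 0.22 (24 higher and 0 lower without overexpressor replicate C), and in complexes II to V 23 of 41 were higher and 4 lower, with a median of 0.29 (30 higher and 1 lower without overexpressor replicate C). Only 1 complex I subunit and 3 of the others were called at 2-fold or more, all higher, among them the muscle isoform Cox8b, from 10.2, 10.9 and 8.66 CPM to 37.2, 35.3 and 32.7 CPM, 3.54-fold higher (log2 difference 1.82, SE 0.21, adjusted p = 1.2e-06). Cox6a2, another muscle isoform, went the other way, from 153, 143 and 146 CPM to 83.4, 75.2 and 76.1 CPM, 1.89-fold lower (log2 difference -0.92, SE 0.16, adjusted p = 9.03e-05). In fatty acid use 15 of 38 genes were higher and 12 lower (17 higher and 7 lower without overexpressor replicate C); Cd36, the fatty acid translocase, was highest in overexpressor replicate C, at 142 CPM against 54.4 and 44.3 CPM in A and B, and the controls held 12.6, 12.4 and 16.9 CPM.

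Cell cycle transcripts, which fall as myoblasts exit the cycle, were higher in the overexpressor myotubes. Of 40 mitosis and spindle genes 37 were higher and 0 lower, with a median of 0.93 (35 higher and 0 lower without overexpressor replicate C). Of 41 DNA replication genes 32 were higher and 2 lower, with a median of 0.68 (36 higher and 1 lower without overexpressor replicate C). In myoblasts the same lists had medians of 0.04 and -0.20. There 2 mitosis genes were higher and 2 lower, and 1 replication gene was higher and 13 lower. Uhrf1, which recruits maintenance DNA methylation to replicating DNA, rose from 4.51, 7.58 and 6.28 CPM to 28.4, 32.2 and 23.6 CPM, 4.61-fold higher (log2 difference 2.20, SE 0.14, adjusted p = 2.47e-10). Melk, a mitotic kinase, rose from 2.73, 4.30 and 3.81 CPM to 11.3, 16.7 and 12.2 CPM, 3.72-fold higher (log2 difference 1.90, SE 0.15, adjusted p = 5.1e-09). The proliferation marker Mki67 had 13.8, 14.3 and 23.1 CPM in control and 25.8, 31.7 and 45.4 CPM in overexpressor myotubes, 2.00-fold higher (log2 difference 1.00, SE 0.27, adjusted p = 0.00498). The origin recognition subunit Orc6 fell, from 47.8, 52.5 and 56.5 CPM to 16, 17.1 and 18.6 CPM, 3.03-fold lower (log2 difference -1.60, SE 0.08, adjusted p = 1.29e-11). Among CDK inhibitors, D cyclins and pocket proteins 7 of 21 were higher and 6 lower (9 higher and 6 lower without overexpressor replicate C). Cdkn1c, an imprinted inhibitor, was lower and uneven, at 12.5, 1.01 and 11.2 CPM in the overexpressor against 29.6, 34.6 and 34.8 CPM in control, 4.02-fold lower (log2 difference -2.01, SE 0.53, adjusted p = 0.00459).

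Extracellular matrix and connective-tissue genes held the 5 largest falls in CPM. Of 32 collagen chains 23 were lower and 2 higher in the overexpressor myotubes, with a median of -1.66 (2 higher and 23 lower without overexpressor replicate C). Their summed level was 52530 to 53690 CPM in control and 9988 to 12490 CPM in overexpressor libraries. Col3a1, a fibrillar collagen, fell from 19040, 17660 and 18210 CPM to 3292, 4420 and 2961 CPM, 5.15-fold lower (log2 difference -2.36, SE 0.11, adjusted p = 3.49e-12). Col1a1, the main chain of type I collagen, fell from 5693, 6769 and 6089 CPM to 480, 303 and 402 CPM, 15.6-fold lower (log2 difference -3.97, SE 0.19, adjusted p = 7.07e-11). Col23a1, a transmembrane collagen, fell furthest, from 19.3, 16.3 and 16.3 CPM to 0.134, 0.0625 and 0.111 CPM, 168-fold lower (log2 difference -7.39, SE 0.26, adjusted p = 6.34e-14). Col11a1 was 1 of the 2 that rose, 2.51-fold higher (log2 difference 1.33, SE 0.15, adjusted p = 3.76e-07).

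Of 45 matricellular and proteoglycan genes, 35 were lower and 6 higher, with a median of -1.87 (6 higher and 36 lower without overexpressor replicate C). Fn1, fibronectin and the most abundant of them, fell from 26210, 24140 and 24010 CPM to 5531, 5391 and 4792 CPM, 4.73-fold lower (log2 difference -2.24, SE 0.08, adjusted p = 1.14e-13). Fmod, the collagen-binding proteoglycan fibromodulin, fell from 539, 643 and 527 CPM to 7.72, 2.88 and 5.96 CPM, 104-fold lower (log2 difference -6.70, SE 0.27, adjusted p = 2.31e-11). The fibrillin gene Fbn1 and Sparc, a collagen-binding glycoprotein, were also among the 5 largest falls by CPM, 10.1-fold and 3.29-fold lower (adjusted p = 2.01e-15 and 3.68e-13). Against this direction, Ccn2, a matricellular target of YAP, rose from 24.4, 38.0 and 30.5 CPM to 289, 506 and 244 CPM, 11.2-fold higher (log2 difference 3.49, SE 0.24, adjusted p = 1.09e-08), and the lysyl oxidase Loxl2 rose 5.12-fold (adjusted p = 6.95e-11). Ogn, osteoglycin, did not pass the test: overexpressor replicate C stood at 517 CPM and A and B at 142 and 142 CPM.

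Matrix proteases and inhibitors were split, with 17 of 29 lower and 9 higher (9 higher and 17 lower without overexpressor replicate C). Timp3, the matrix-bound metalloproteinase inhibitor, fell from 1655, 1646 and 1809 CPM to 27.0, 22.2 and 28.3 CPM, 65.9-fold lower (log2 difference -6.04, SE 0.15, adjusted p = 3.16e-15). Mmp2, gelatinase A, fell from 1841, 1692 and 1568 CPM to 93.9, 86.6 and 73.9 CPM, 20.1-fold lower (log2 difference -4.33, SE 0.10, adjusted p = 3.22e-16).

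Genes that mark fibroblasts and fibro-adipogenic progenitors, the interstitial mesenchymal cells of muscle, fell with the matrix. Of 22 tested, 19 were lower and 3 higher, with a median of -3.0 (3 higher and 19 lower without overexpressor replicate C). Dpt, dermatopontin, fell from 85.8, 93.6 and 87.5 CPM to 0.327, 0.40 and 0.403 CPM, 234-fold lower (log2 difference -7.87, SE 0.19, adjusted p = 4.95e-16). Pdgfra, the receptor that defines these progenitors, fell from 26.2, 19.6 and 22.9 CPM to 9.47, 11.3 and 9.70 CPM, 2.25-fold lower (log2 difference -1.17, SE 0.10, adjusted p = 1.34e-08), while Thy1 and Tcf21 had no more than 4 counts in any of the 6 libraries. Fap, also in the list and also not tested, had at most 7 counts in a control library and up to 53 in an overexpressor library. The summed level of 9 such markers was 24540 to 25010 CPM in control and 3398 to 4755 CPM in overexpressor myotubes, most of it from Col3a1 and Col1a1, and all 7 that were tested were lower. Adipogenic genes had 10 of 12 lower and 0 higher (0 higher and 9 lower without overexpressor replicate C). Scara5, a ferritin receptor, fell from 343, 224 and 242 CPM to 0.327, 0.438 and 0.486 CPM, 641-fold lower (log2 difference -9.32, SE 0.19, adjusted p = 2.03e-16), and Cebpa, an adipogenic transcription factor, fell from 32.5, 32.8 and 27.7 CPM to 6.50, 7.71 and 5.49 CPM, 4.72-fold lower (log2 difference -2.24, SE 0.11, adjusted p = 8.95e-12). The defining adipocyte genes Adipoq and Plin1 had at most 2 counts in every library. Markers of undifferentiated cells went both ways, with Cd34 at 166, 175 and 176 CPM in control and 18.7, 16 and 17.8 CPM in the overexpressor, 9.83-fold lower (log2 difference -3.30, SE 0.10, adjusted p = 8.78e-15), and Mki67 higher as given above. The part of undifferentiated or fibroblast-like cells in the fall of matrix genes was not tested.

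**Figure D3:**
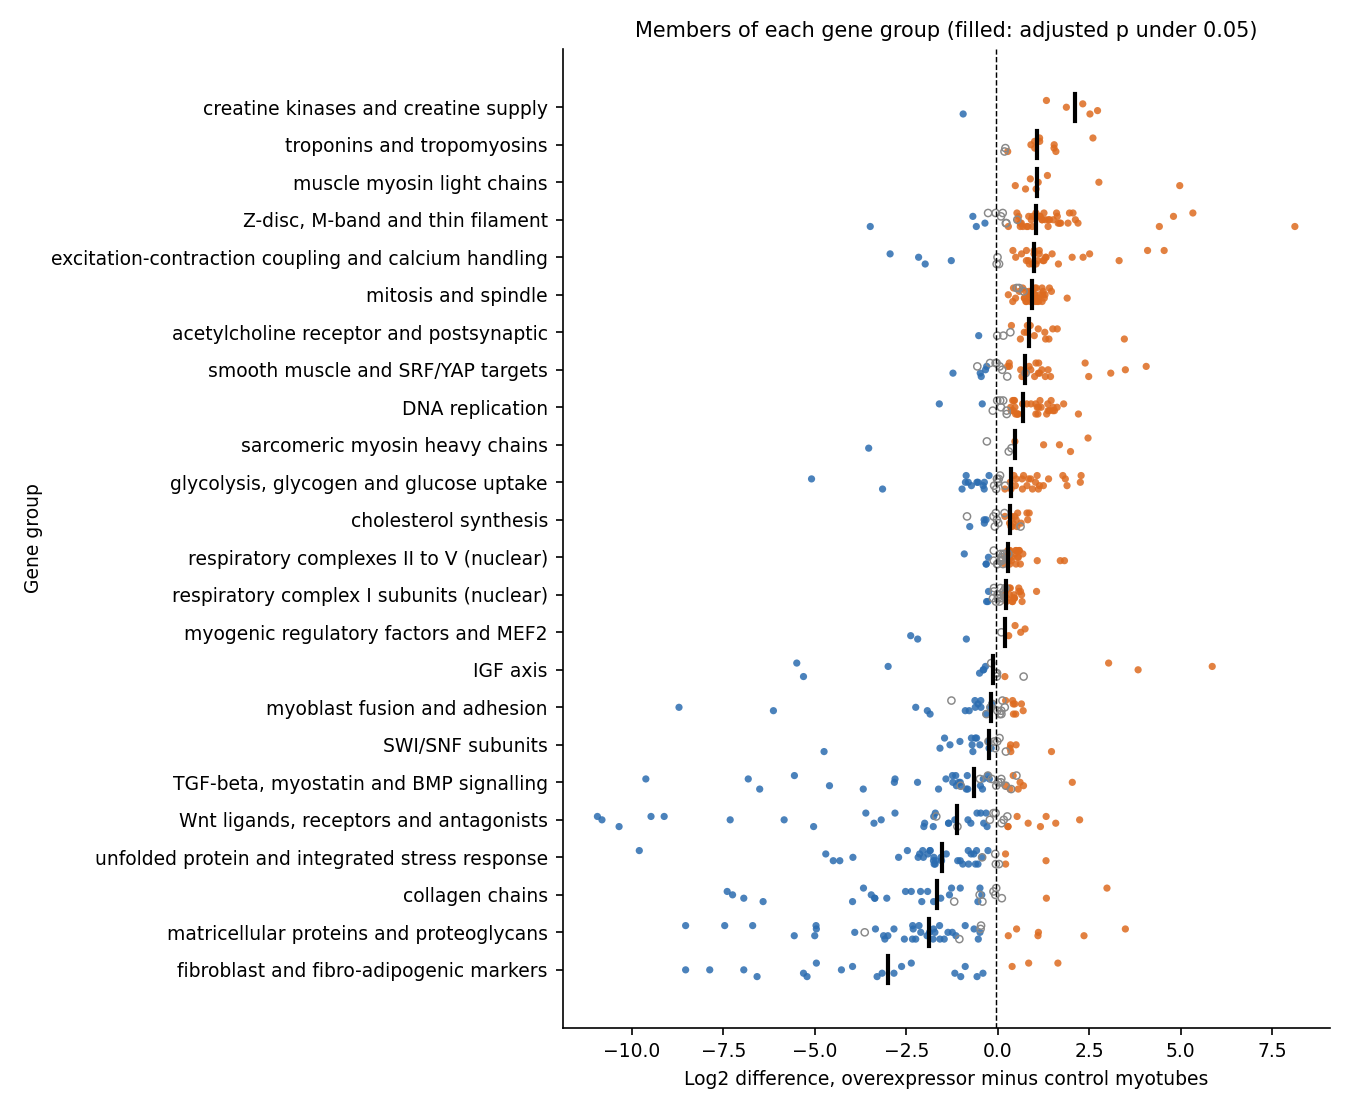
Log2 difference between overexpressor and control myotubes for the tested members of 24 gene groups, ordered by median. Each point is 1 gene, filled where the adjusted p was under 0.05, and the black bar is the group's median; the dashed line is the median of all 17912 genes. Contractile groups lie to the right of it, and matrix, fibro-adipogenic and stress-response groups to the left.

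Genes of secreted signals and their antagonists fell more often than they rose. In the Wnt group 27 of 43 genes were lower and 8 higher, with a median of -1.10 (9 higher and 27 lower without overexpressor replicate C). The antagonist Sfrp2 fell from 772, 684 and 641 CPM in control to 0.178, 0.563 and 0.292 CPM in overexpressor myotubes, 1960-fold lower (log2 difference -10.94, SE 0.23, adjusted p = 2.01e-15). Wnt5a, a noncanonical ligand, had 4.79, 3.66 and 3.88 CPM in control and 0 counts in every overexpressor library, at least 99.7-fold lower against 3 counts per library (adjusted p = 2.48e-08). Receptor genes were split, with Fzd4 2.26-fold lower and Fzd3 3.0-fold higher (adjusted p = 2.63e-08 and 1.07e-06). In the TGF-beta, myostatin and BMP group 26 of 44 were lower and 7 higher, with a median of -0.65 (7 higher and 26 lower without overexpressor replicate C). Bmp4, a ligand, fell from 55.5, 52.2 and 55.4 CPM to 0.683, 0.0876 and 1.06 CPM, 90.8-fold lower (log2 difference -6.51, SE 0.40, adjusted p = 2.41e-09). Gdf11, a myostatin relative, rose from 33.5, 35.1 and 37.0 CPM to 154, 127 and 153 CPM, 4.10-fold higher (log2 difference 2.04, SE 0.08, adjusted p = 1.57e-13).

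The IGF axis, which supports myotube growth, was split. Of 16 genes 4 were higher and 7 lower (4 higher and 6 lower without overexpressor replicate C). The ligand Igf1 fell from 74.3, 72.3 and 85.9 CPM to 1.60, 1.15 and 3.12 CPM, 39.6-fold lower (log2 difference -5.31, SE 0.30, adjusted p = 4.53e-10). Igfbp4, a binding protein that restrains IGF, fell from 294, 228 and 202 CPM to 5.64, 5.42 and 5.04 CPM, 45.0-fold lower (log2 difference -5.49, SE 0.16, adjusted p = 1.29e-14). Igfbp2 rose from 6.06, 9.22 and 8.77 CPM to 127, 117 and 98.2 CPM, 14.3-fold higher (log2 difference 3.83, SE 0.14, adjusted p = 2.76e-13). The RNA-binding protein gene Igf2bp2, a stabiliser of target mRNAs, was 8.16-fold higher (adjusted p = 8.24e-13). Among FGF genes 8 of 23 were higher and 11 lower (9 higher and 9 lower without overexpressor replicate C). The ligand Fgf5 rose from 0.246, 0.275 and 0.126 CPM to 17.3, 17.0 and 21.2 CPM, 86.5-fold higher (log2 difference 6.44, SE 0.22, adjusted p = 6.26e-14), and Fgf10, a mesenchymal ligand, fell from 31.9, 26.6 and 24.6 CPM to 0.208, 0.263 and 0.208 CPM, 120-fold lower (log2 difference -6.91, SE 0.21, adjusted p = 1.15e-14). Of 22 Notch genes 7 were higher and 10 lower (8 higher and 9 lower without overexpressor replicate C), with the ligand Jag1 7.83-fold lower and the target Hey1 4.72-fold higher (adjusted p = 2.1e-14 and 3.62e-12).

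The integrated stress response, in which phosphorylation of eIF2 raises translation of Atf4 and, through it, genes for amino acid supply and cell death, had most of its genes lower in the overexpressor. Of 41 stress-response and unfolded-protein genes 34 were lower and 3 higher, with a median of -1.54 against -0.04 over all genes (4 higher and 34 lower without overexpressor replicate C). Atf4 fell from 1140, 1176 and 1144 CPM to 445, 463 and 396 CPM, 2.65-fold lower (log2 difference -1.41, SE 0.06, adjusted p = 6.94e-13). Among its known targets, Trib3, a pseudokinase gene, fell from 352, 348 and 299 CPM to 12.3, 15 and 11 CPM, 26.0-fold lower (log2 difference -4.70, SE 0.15, adjusted p = 3.02e-14). Ddit3, the transcription factor CHOP, fell from 145, 144 and 147 CPM to 8.21, 11.5 and 8.24 CPM, 15.5-fold lower (log2 difference -3.96, SE 0.12, adjusted p = 1.05e-14). Slc7a11, the cystine transporter, fell from 24.8, 24.1 and 27.4 CPM to 0.965, 0.863 and 1.56 CPM, 22.6-fold lower (log2 difference -4.50, SE 0.21, adjusted p = 2.81e-12), and Asns, asparagine synthetase, from 647, 667 and 582 CPM to 188, 202 and 171 CPM, 3.38-fold lower (log2 difference -1.76, SE 0.09, adjusted p = 7.29e-12). Hspa5, the chaperone BiP, was 1.58-fold lower (adjusted p = 1.03e-05), and Sdf2l1, an endoplasmic reticulum gene, 2.49-fold higher (adjusted p = 7.36e-10). In myoblasts the list's median was -0.05, but 7 of its genes were higher and 15 lower, where 40.4% of all genes tested passed.

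Promoter windows of 3 members that fell are shown because they hold TGATGNAA, the core of the C/EBP-ATF composite element that ATF4 is known to bind. The motif was searched on both strands of RefSeq windows (GRCm38.p6), and capitals mark the match. It was found in 9 of the 36 genes of the stress-response list that have a window and in 4.51% of 27025 genes with a window (3.97% of windows). The list holds known targets of Atf4, so these shares describe the sequences only, and a part of Atf4 in the falls was not tested. Chac1, a glutathione-degrading enzyme gene, had 207, 225 and 199 CPM in control and 59.0, 66.4 and 49.9 CPM in overexpressor myotubes, 3.60-fold lower (log2 difference -1.85, SE 0.11, adjusted p = 1.33e-10). The windows lie at chr2:119350992-119351291 (plus strand), chr6:7693160-7693459 (minus strand) and chr2:152344011-152344310 (minus strand), and the matches begin at -193, -23 and 15 relative to the start.
Chac1: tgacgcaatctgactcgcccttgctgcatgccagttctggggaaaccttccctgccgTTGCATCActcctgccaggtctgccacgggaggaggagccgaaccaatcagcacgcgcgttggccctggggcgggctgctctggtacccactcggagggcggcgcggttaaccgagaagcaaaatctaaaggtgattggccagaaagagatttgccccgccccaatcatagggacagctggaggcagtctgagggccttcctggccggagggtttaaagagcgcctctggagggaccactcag
Asns: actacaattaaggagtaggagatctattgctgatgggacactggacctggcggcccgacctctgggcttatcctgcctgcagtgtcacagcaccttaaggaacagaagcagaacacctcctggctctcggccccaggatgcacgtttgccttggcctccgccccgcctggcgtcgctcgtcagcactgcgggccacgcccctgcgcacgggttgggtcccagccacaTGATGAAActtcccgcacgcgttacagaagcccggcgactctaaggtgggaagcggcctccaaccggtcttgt
Trib3: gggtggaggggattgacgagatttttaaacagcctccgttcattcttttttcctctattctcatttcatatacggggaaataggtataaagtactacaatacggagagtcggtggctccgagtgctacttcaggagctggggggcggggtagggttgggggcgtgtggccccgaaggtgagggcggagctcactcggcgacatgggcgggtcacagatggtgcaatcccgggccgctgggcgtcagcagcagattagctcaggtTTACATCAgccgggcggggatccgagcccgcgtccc

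Smooth muscle genes and targets of SRF and YAP, factors that respond to actin dynamics, were higher. Of 35 tested 22 were higher and 5 lower, with a median of 0.75 (25 higher and 5 lower without overexpressor replicate C). Acta2, smooth muscle alpha-actin, rose from 1749, 2101 and 1906 CPM to 5386, 5772 and 4473 CPM, 2.72-fold higher (log2 difference 1.44, SE 0.09, adjusted p = 3.08e-10). Tagln, an actin-binding protein, rose from 36.1, 58.7 and 49.4 CPM to 289, 271 and 246 CPM, 5.6-fold higher (log2 difference 2.48, SE 0.12, adjusted p = 1.49e-11), and Cnn1, calponin, from 0.189, 0.320 and 0.234 CPM to 5.92, 1.38 and 5.06 CPM, 16.6-fold higher (log2 difference 4.06, SE 0.53, adjusted p = 1.03e-05). Myh11, which defines differentiated smooth muscle, was at or under 0.275 CPM in all 6 libraries (adjusted p = 0.502). Des, the muscle intermediate filament gene counted in this group, rose from 2112, 2138 and 2065 CPM to 5989, 5455 and 4935 CPM, 2.59-fold higher (log2 difference 1.37, SE 0.11, adjusted p = 2.96e-09). Actin genes are close in sequence, so reads may be divided among Acta1, Acta2 and Actg2.

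Imprinted genes outside the targeted region included the largest rise by CPM. Of 28 tested 12 were higher and 8 lower (12 higher and 6 lower without overexpressor replicate C). H19, a maternally expressed noncoding RNA, rose from 3487, 3587 and 3721 CPM to 19310, 20680 and 16450 CPM, 5.23-fold higher (log2 difference 2.39, SE 0.09, adjusted p = 1.19e-13). Mest, a paternally expressed hydrolase-like gene, rose from 2.86, 3.91 and 2.94 CPM to 57.0, 80.2 and 56.9 CPM, 20.1-fold higher (log2 difference 4.33, SE 0.17, adjusted p = 3.6e-13). Peg10, a retrotransposon-derived gene, fell from 133, 138 and 146 CPM to 7.96, 8.34 and 8.08 CPM, 17.1-fold lower (log2 difference -4.09, SE 0.12, adjusted p = 5.73e-15). Among chromatin regulators, of 25 SWI/SNF remodeller subunits 14 were lower and 5 higher, with a median of -0.25 (6 higher and 13 lower without overexpressor replicate C). By 2-fold or more 5 of the 25 were lower and 1 higher, where 23.7% of all genes tested differed by that much. The ATPase gene Smarca2 fell furthest of them, from 59.7, 49.0 and 58.9 CPM to 2.11, 1.61 and 2.53 CPM, 26.8-fold lower (log2 difference -4.75, SE 0.15, adjusted p = 2.29e-14). In the Polycomb group 8 of 31 were higher and 7 lower (10 higher and 6 lower without overexpressor replicate C). Its median of -0.09 turned to 0.01 with DESeq2's size factors or its Wald test and to 0.05 under library totals. Without overexpressor replicate A, B or C it turned to 0.03, 0.03 and 0.04. Among 25 tested Hox genes 8 were higher and 11 lower (8 higher and 10 lower without overexpressor replicate C). Their median of 0.11 turned to -0.345 with the 6 myotube libraries alone, to -0.03 without control replicate B and to -0.02 without control replicate C. Hoxb3 had 0 counts in control and 0.312, 0.313 and 0.389 CPM in the overexpressor, and Hoxa13 fell 17.5-fold (adjusted p = 2.02e-10). Of the exon bases of Hoxb3, 52.9% are shared with Hoxb3os on the opposite strand, so its reads may be those of Hoxb3os.

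Other genes with the largest fold changes included Plcg2, a phospholipase of receptor signalling, which rose from 0.171, 0.137 and 0.0722 CPM to 28.7, 17.4 and 25.1 CPM, 186-fold higher (log2 difference 7.54, SE 0.35, adjusted p = 6.3e-12). Wfdc1, a secreted inhibitor-like protein, had at most 2 counts in the controls and 10.1, 8.99 and 9.25 CPM in the overexpressor, at least 158-fold higher (adjusted p = 3.54e-12). Dync1i1, a dynein intermediate chain, rose from 1.5, 1.90 and 1.91 CPM to 70.6, 72.3 and 69.6 CPM, 40.0-fold higher (log2 difference 5.32, SE 0.10, adjusted p = 4.48e-17). Pmaip1, which encodes the apoptosis regulator Noxa, rose from 7.37, 7.19 and 8.86 CPM to 124, 139.8 and 229 CPM, 21.0-fold higher (log2 difference 4.40, SE 0.26, adjusted p = 1.35e-09), and was highest in replicate C. The lowest log2 difference among abundant genes was that of Stc1, the secreted glycoprotein stanniocalcin, from 124, 126 and 120.3 CPM to no more than 2 counts in any overexpressor library, at least 2990-fold lower (adjusted p = 4.95e-16). Vldlr, a lipoprotein and reelin receptor, fell from 63.8, 53 and 59.8 CPM to 0.0445, 0 and 0.153 CPM, 889-fold lower (log2 difference -9.80, SE 0.41, adjusted p = 8.02e-11). Its overexpressor values rest on few counts, so the size of this fold is uncertain. Klf15, a glucocorticoid-responsive factor, had 7.65, 8.08 and 6.98 CPM in control and at most 3 counts in the overexpressor, at least 184-fold lower (adjusted p = 4.88e-10). The libraries of the 2 lines did not overlap for these genes, but the rule that picked the largest differences required this, so it is no result.

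Whether the lines already differed before differentiation was asked by setting the same contrast in myoblasts, which uses other libraries, beside it. There 7231 of 17912 genes passed (40.4%). Of the 4246 genes that differed at least 2-fold in myotubes, 1989 (46.8%) were called in the same direction in myoblasts, 369 (8.69%) in the opposite direction and 1888 (44.5%) not at all. Of the 2505 genes called at 2-fold in myoblasts, 65.5% were called in the same direction in myotubes. Across genes, which are not independent, the log2 differences had a Pearson r of 0.526 (n = 17912 genes). A test of the change itself, the difference in myotubes minus the difference in myoblasts, passed for 6977 genes (39.0%), 2981 upwards and 3996 downwards.

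In overexpressor myoblasts Meg3 stood at 133 ± 22.9 CPM and Rian at 223 ± 23.1 CPM, against 92.6 ± 13.4 and 148 ± 32 CPM in overexpressor myotubes (SD, n = 3). With controls at or near 0 counts at both stages, the test of the change can give no answer for them. For most stress-response genes the change passed. Trib3 was at 4.35 ± 0.361 CPM in control and 5.36 ± 0.490 CPM in overexpressor myoblasts, and its difference changed by -5.0 on the log2 scale (adjusted p = 4.03e-12). Of the list's 41 genes, 27 had a difference that changed downwards and 3 upwards. Timp3 stood at 198 ± 10.4 and 194 ± 29.3 CPM in control and overexpressor myoblasts, a log2 difference of -0.03, against -6.04 in myotubes (adjusted p of the change = 2.74e-13). Fn1 was 1.83-fold higher in overexpressor myoblasts and 4.73-fold lower in myotubes (adjusted p of the change = 5.97e-13). Col1a1 was lower at both stages, at 779 ± 24.6 CPM in control and 9.85 ± 0.710 CPM in overexpressor myoblasts, and the difference in myotubes was smaller in size, by 2.34 on the log2 scale (adjusted p = 2.2e-06).

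In the SRF group the change was upwards wherever it passed. Tagln was at 279 ± 5.68 CPM in control and 61.6 ± 3.70 CPM in overexpressor myoblasts, a log2 difference of -2.18 (adjusted p = 1.5e-10), against 2.48 in myotubes (adjusted p of the change = 1.91e-12). In that group 23 of 35 differences changed upwards and 0 downwards. Cholesterol synthesis also turned, with 23 of 26 genes lower and 0 higher in overexpressor myoblasts, and 14 higher and 4 lower in myotubes (15 higher and 3 lower without overexpressor replicate C). The contractile groups did not share 1 pattern. Z-disc genes were higher at both stages, with medians of 1.23 in myoblasts and 1.04 in myotubes. Troponins and tropomyosins had medians of -0.07 and 1.08, and 9 of 12 differences changed upwards and 0 downwards. In myoblasts 4 of the 12 were higher and 3 lower. Excitation-contraction and calcium genes had medians of 0.485 and 0.99, with 18 of 33 higher and 2 lower in myoblasts. Pvalb went against this last list. It was 4.93-fold lower in overexpressor myoblasts and 17.1-fold higher in myotubes (adjusted p of the change = 4.18e-12).

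**Figure D4:**
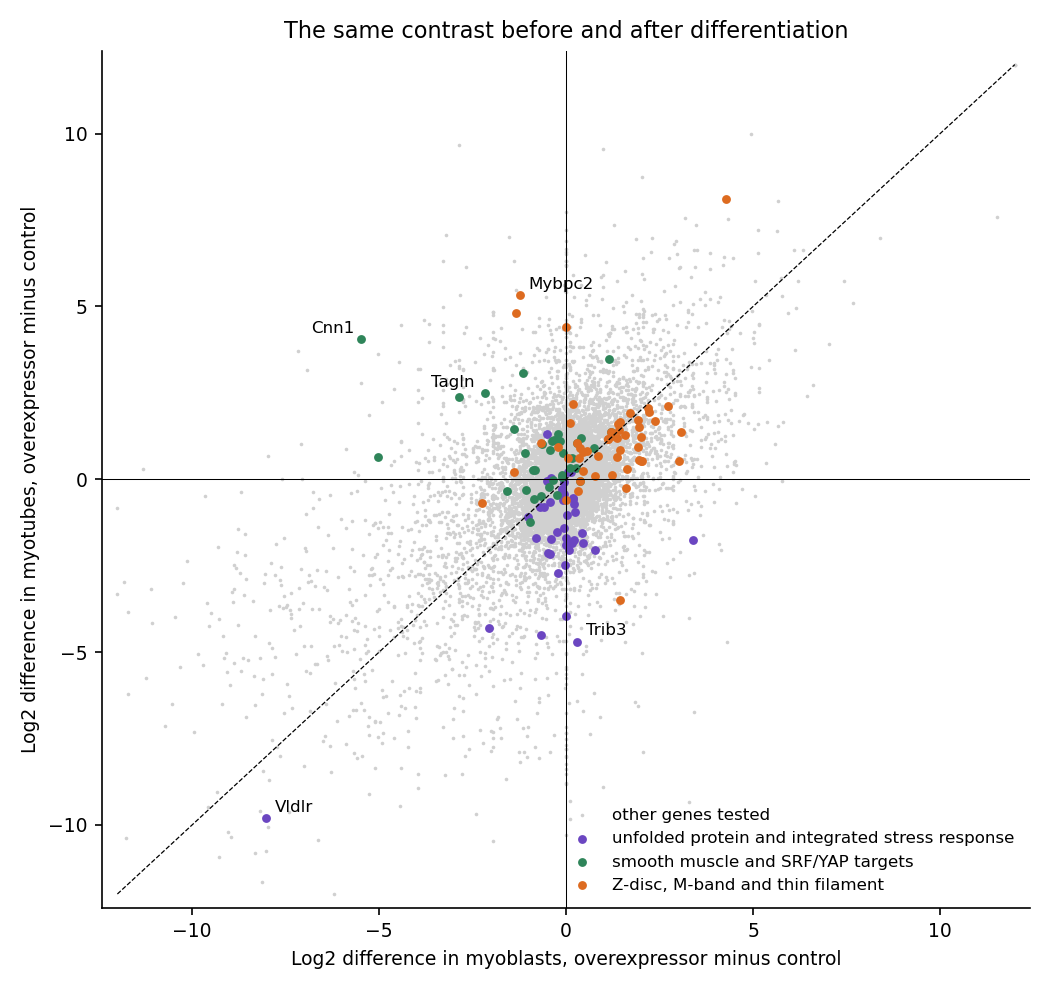
Log2 difference between overexpressor and control in myoblasts (horizontal) and in myotubes (vertical) for the 17912 genes tested, with the stress-response, SRF/YAP and Z-disc groups coloured. Most stress-response genes spread downwards near 0 on the horizontal axis, with Vldlr lower at both stages, SRF/YAP genes lie mostly above the diagonal, and Z-disc genes mostly in the upper right; values beyond 12 in either direction are drawn at 12.

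Against the knockout clone's myotubes, 10692 of 17912 genes differed (59.7%). This contrast shares the overexpressor libraries with the one against control, so the values are only set side by side. For the stress-response list the median log2 difference was -1.54 against control and 0.04 against knockout, for Z-disc genes 1.04 and -0.23, for fibro-adipogenic markers -3.0 and -0.04, and for SRF/YAP targets 0.75 and -0.32. Trib3 was at 6.96 ± 0.332 CPM, Timp3 at 30.0 ± 5.62 CPM and Fn1 at 4416 ± 187 CPM in knockout myotubes, each far under its control level. Ckm stood at 2155 ± 345 CPM and H19 at 24400 ± 1654 CPM in the knockout, each above its control level (SD, n = 3). Of 36 nuclear complex I genes 23 were lower and 1 higher in the overexpressor than in the knockout, and of 41 genes of complexes II to V 26 were lower and 8 higher.

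Other genes that separated the overexpressor from control also separated it from the knockout. Plcg2 stood at 0.556 ± 0.213 CPM in knockout myotubes, a log2 difference of 5.38 (adjusted p = 1.18e-10). Dync1i1 stood at 4.79 ± 0.216 CPM, a log2 difference of 3.89 (adjusted p = 5.23e-15). Mest stood at 0.808 ± 0.201 CPM in the knockout, with a log2 difference of 6.31 (adjusted p = 9.87e-14), and Dcn, decorin, at 48.2 ± 4.68 CPM, with -2.88 (adjusted p = 3.69e-10); its myotube values were 54.2, 44.1 and 41.6 CPM in control and 5.87, 4.99 and 8.74 CPM in the overexpressor. Myl2 was highest in the overexpressor, at 39.5 ± 0.884 CPM, then in the knockout, at 12.3 ± 2.30 CPM, and lowest in control, at 1.26 ± 0.373 CPM (SD, n = 3).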

How the data were processed

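The values are the raw counts per gene that the authors deposited for 18 polyA RNA-seq libraries, with 3 in each of 6 groups. Per the submitters' processing notes, STAR 2.7.9a, featureCounts of Subread 2.0.3, FastQC 0.11.7, DESeq2 1.32.0 and the build mm10 were used. Their roles, the annotation release and the strand setting are not given in the sources used here. Of 55450 gene IDs, 55104 were given a symbol from GENCODE on GRCm38, which also supplied gene coordinates. Promoter windows came from RefSeq (GRCm38.p6).

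Groups were taken from the genotype and cell type labels. Counts were fitted with edgeR 4.0.16 (R 4.3.3, limma 3.58.1) by the quasi-likelihood test with TMM scaling and filterByExpr, with 1 coefficient for each of the 6 groups over all libraries (12 residual degrees of freedom). P-values were adjusted by Benjamini-Hochberg over the 17912 genes tested, with a threshold of 0.05. The contrasts were overexpressor against control in myotubes and in myoblasts, the difference between these differences, and overexpressor against knockout myotubes. Folds printed against a group with no more than 3 counts in any library are bounds computed with 3 counts per library. In simulated counts with 200 changed genes, the procedure recovered 43.3% of 1.5-fold, 67.2% of 2-fold and 90.9% of 4-fold changes. It called 0.0469% of unchanged genes. Far fewer genes were changed there than were called in the data, so these shares do not carry over to the data. The simulation also gave each gene 1 spread for all groups, while overexpressor and control myotubes differed in theirs. It does not bear on the choice of scaling. Tried as alternatives were DESeq2 1.42.0, its size factors, library totals, no filter, the replicate letter as a block, the 6 myotube libraries alone and leaving out each library.

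Genes were named by a rule: the 6 cluster genes; the 10 highest and 10 lowest log2 differences with a mean of at least 5 CPM in the higher group and no overlap between groups; the 5 largest rises and falls in CPM; up to 3 at either end of each of 48 lists; members of lists of up to 12 genes; and the 5 largest changes of difference in either direction. By it 101 named genes were chosen, and 19 others, among them Atf4, Asns, Chac1, Ddit3, Hspa5, Cebpa, Pdgfra, Cd34, Mki67, Mymx, Chrng, Xirp2, Fzd4, Wnt5a, Hoxa13 and Hoxb3, were chosen after their values were seen. The comparison and all lists were chosen with earlier results of these data known.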

Additional observations from a re-analysis of the deposited data

Results flagged for a closer look

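The overexpressor's difference from control was not the same before and after differentiation for 6977 genes, by a test of the change itself (edgeR's quasi-likelihood test, adjusted p under 0.05). Where a group had 0 or few counts, as in overexpressor myoblasts for Avpr1a and St8sia2 (0 in every library), Klhl13 and Bhlhb9, and in myoblasts of both lines for Klf15 and Car6, the fitted change depends on the prior count, is no bound and gives no size.

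The 5 largest upward changes by fitted log2 value belonged to genes far lower in overexpressor than in control myoblasts. Klhl13, a ubiquitin ligase adaptor gene, had 60.9 ± 4.33 CPM in control and 0.0226 ± 0.0231 CPM in overexpressor myoblasts (SD, n = 3 here and below), and 24.2, 23.0 and 24.9 CPM in control and 23.5, 20.8 and 45.2 CPM in overexpressor myotubes, where the groups overlapped. Its log2 difference changed by 11.63 (adjusted p = 4.47e-10). Avpr1a, a vasopressin receptor gene, changed by 11.23 (adjusted p = 0.000291), with 9.84 ± 0.890 CPM in control and 0 ± 0 CPM in overexpressor myoblasts and at most 0.229 CPM in any of the 6 myotube libraries. St8sia2, which adds polysialic acid to Ncam1, changed by 10.08 (adjusted p = 0.00874), Cnn1, with 29.3 ± 1.14 CPM in control and 0.667 ± 0.338 CPM in overexpressor myoblasts, by 9.53 (adjusted p = 4.58e-08) and Bhlhb9 by 8.85 (adjusted p = 0.00103). Overexpressor myotube replicate B had 0 counts of St8sia2 and of Bhlhb9, where replicate A held 1.20 and 1.96 CPM and replicate C 0.708 and 2.54 CPM.

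The 5 largest downward changes by fitted log2 value belonged to genes that were higher in control than in overexpressor myotubes. Scara5 had 0.127 ± 0.0275 CPM in control and 1.25 ± 0.0783 CPM in overexpressor myoblasts, against 269.8 ± 63.8 and 0.417 ± 0.0818 CPM in myotubes, a change of -12.61 (adjusted p = 1.36e-14). Klf15 had at most 0.0298 ± 0.0258 CPM in either group of myoblasts and changed by -9.88 (adjusted p = 0.000914). Car6, a secreted carbonic anhydrase gene, stood at 88.2 ± 10.5 CPM in control and 0.133 ± 0.0892 CPM in overexpressor myotubes and changed by -9.41 (adjusted p = 0.00111). Atp2a3, a calcium pump gene, changed by -8.30 (adjusted p = 1.59e-13), from 76.8 ± 6.09 CPM in control to 0.877 ± 0.154 CPM in overexpressor myotubes. Cdsn, corneodesmosin, stood at 433 ± 63.4 and 2.61 ± 0.520 CPM in those groups and changed by -8.0 (adjusted p = 2.44e-14).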

How the results depend on the processing

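The number of genes called between overexpressor and control myotubes (10236) stayed between 8768 and 10280 in all 12 alternatives, and the number called at 2-fold or more (4246) between 3906 and 4607. Leaving out 1 library gave 9448 to 10210 calls, 6383 to 7222 for the change of difference (6977 with all libraries), 6314 to 6920 for myoblasts (7231) and 9233 to 10649 against the knockout (10692). The spread is pooled over all groups in these fits, as in the main fit, so a group with 2 libraries left shares that estimate. Whether the replicate letters pair the samples cannot be told, since deviations from a mean of 3 libraries are tied to each other. The deviations of same-lettered libraries correlated at 0.05, 0.10 and 0.26. Overexpressor replicates B and C, but not A, correlated best with their own letter. With the replicate block the counts were 9905, 6598, 6803 and 10235, and 4193 at 2-fold or more. Of 120 named genes 106 kept direction and side of the threshold in all 12 alternatives, 8 lost their call in at least 1, 5 gained one and 2 that were not called changed sign, with Klhl13 among both of the last groups. The sign changes were of Klhl13, whose log2 difference ran from -0.017 (without overexpressor replicate C) to 0.52 (without overexpressor replicate B), and of Myh11, from -0.84 (without control replicate C) to 0.10 (without control replicate B); the causes were not tested, apart from the single library left out. Cdkn1c lost its call with the 6 myotube libraries alone (adjusted p = 0.079). Ogn gained one without overexpressor replicate C (log2 difference -1.26, adjusted p = 0.012). Tpm4 gained one under 6 alternatives, DESeq2's size factors among them (log2 difference 0.32, adjusted p = 0.00618). The 2 lines were 1 clone and 1 population, so no alternative bears on clonal differences. The 3 counts used for bounds correspond to 0.0375 to 0.0687 CPM at these depths.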
